A study of Mus musculus with 8 samples.

Results

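On stretches of mouse chromosomes 6 and 13, G9a peaks were called far more often in rescued knockout cells than in wild-type cells. The data were ChIP-seq peak lists from TT2 mouse embryonic stem cells, a line that the labels trace to a C57BL/6 female and a CBA male. The members were all peaks, of 5 lists, whose midpoint lay in a window of chromosome 6 from 110 to 140 Mb or of chromosome 13 from 100 Mb to its end at 120.3 Mb, in build mm9. The windows held 7468 of the 174428 peaks deposited. These were 5664 of 83721 rescue G9a peaks, 1422 of 67318 wild-type G9a peaks, 79 of 6198 knockout Ezh2 peaks, 87 of 5425 peaks of wild-type Ezh2 library 0 and 216 of 11766 peaks of wild-type Ezh2 library 1. The windows were chosen by the rescue and wild-type G9a peak counts, so those counts are a description here and no test was made on them.

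The rescue G9a library came from TT2 cells lacking G9a and GLP (G9a-/- GLP-/-) into which wild-type G9a had been put back, so by the label these cells still lacked GLP. The wild-type G9a library came from unmodified TT2 cells. The knockout Ezh2 library came from the G9a-/- GLP-/- cells by its title and description, although its source name mentions TT2 without a knockout; the title was followed. The wild-type Ezh2 libraries, numbered 0 and 1, came from unmodified TT2 cells, and the labels do not say that they were separate cultures. With 1 library in each of the other groups, conditions could not be tested against each other. The labels say neither whether the rescued line was 1 clone nor how much G9a it made. Peak lists carry no reads and no measure of G9a or GLP, so the depth of the libraries is unknown, and neither the knockout nor the rescue could be checked.

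G9a and its close partner GLP form a complex that mono- and dimethylates lysine 9 of histone H3, a mark of repressed euchromatin that in embryonic stem cells lies in broad domains. Ezh2 is the enzyme of Polycomb repressive complex 2 that puts methyl groups on lysine 27 of the same histone, in embryonic stem cells chiefly at silenced developmental genes. A peak is a stretch of genome with more reads in the immunoprecipitated sample than in its control. Each deposited peak has a score given by the authors' peak caller, MACS, and a higher score stands for a smaller p. Many G9a peaks scored low: 51134 of 83721 rescue and 30896 of 67318 wild-type peaks scored under 30. The scores are the authors' values, and they were used here to describe, rank or filter peaks within a list.

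The rescue excess was first located in 0.5 Mb bins, as the segment that best separated a high from a low rescue share of G9a peaks. On chromosome 6 this segment was chr6:119500001-133000000, a length of 13.5 Mb. It held 2569 rescue and 465 wild-type G9a peaks, a 4.44-fold excess once the counts were scaled by the list totals. The rest of the chromosome 6 window held 573 rescue and 433 wild-type peaks, a scaled ratio of 1.06. On chromosome 13 the segment was chr13:112500001-118000000, a length of 5.5 Mb. It held 1860 rescue and 208 wild-type peaks, a 7.19-fold excess. The rest of the chromosome 13 window held 662 rescue and 316 wild-type peaks, a ratio of 1.68. With list totals taken without chromosomes 1 and 8, the excess of the segments was 3.72-fold on chromosome 6 and 6.02-fold on chromosome 13. The size of the excess depended on what counted as a peak. With peaks within 1 kb merged it was 2.50-fold on chromosome 6 and 2.11-fold on chromosome 13. Scaled by the totals of the filtered lists, it was 6.96-fold and 13.1-fold with scores of at least 30. With scores of at least 50 it was 10.1-fold and 23.3-fold. At 100 or more the genome held 3059 rescue and 7214 wild-type peaks, which raises such scaled folds. The unscaled ratio at 100 or more was 6.02 in the chromosome 6 segment, against 5.52 at all scores. In the chromosome 13 segment it was 16.25, against 8.94.

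The segments were placed to separate high from low rescue shares, so a step at an edge is partly built in. The bins on either side of each edge are given as a description. At the start of the chromosome 6 segment, the first bin inside held 78 rescue and 1 wild-type peaks, and the bin just outside held 22 rescue and 22 wild-type peaks. At its end, the last bin inside held 3 rescue and 1 wild-type peaks and the next bin held 8 rescue and 5 wild-type peaks. At the start of the chromosome 13 segment, the first bin inside held 292 rescue and 30 wild-type peaks, and the bin just outside held 37 rescue and 24 wild-type peaks. At its end, the last bin inside held 18 rescue and 3 wild-type peaks and the next bin held 22 rescue and 8 wild-type peaks. Both starts were steps, while both ends lay in bins with few peaks of either list. When the segment was placed by rescue counts alone, the starts did not move and the ends lay at 129500000 on chromosome 6 and 115500000 on chromosome 13.

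**Figure D1:**
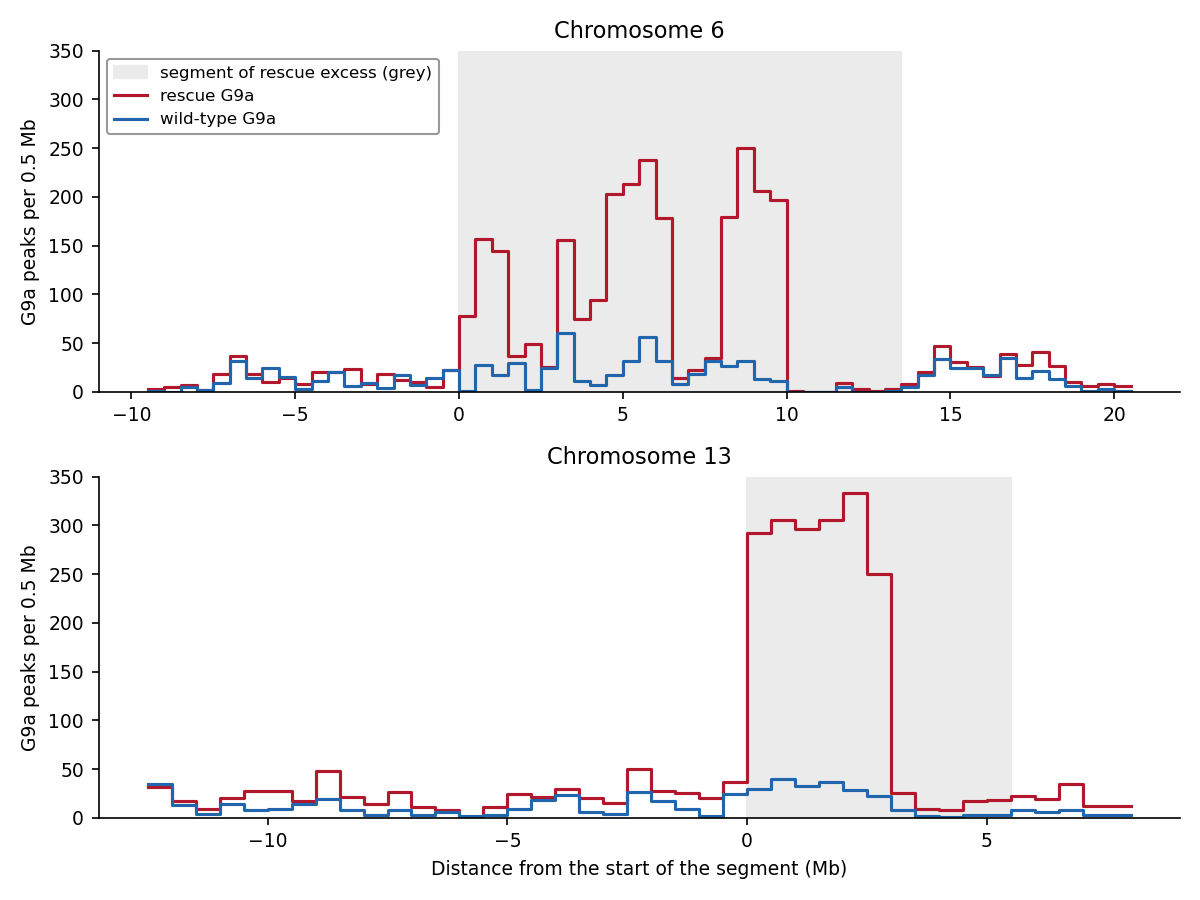
G9a peaks per 0.5 Mb bin along both windows, against the distance in Mb from the start of the segment of rescue excess (grey). Rescue counts (red) reach 250 on chromosome 6 and 333 on chromosome 13 inside the segments, while wild-type counts (blue) stay at 60 or fewer; the right part of each grey segment holds few peaks of either list.

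Of the bins with at least 10 G9a peaks, 15 of 21 in the chromosome 6 segment and 10 of 10 in the chromosome 13 segment had a scaled rescue to wild-type ratio of at least 2, with 1 peak added to each count. Over the genome 17.5% of such bins passed the same ratio. In the rest of the windows the ratio was passed by 2 of 28 such bins on chromosome 6 and 16 of 29 on chromosome 13, so on chromosome 13 bins past 2-fold also lay outside the segment. These are the counts that chose the windows, so nothing is read from the comparison. A typical bin of the genome held a median of 11 rescue and 9 wild-type peaks. Of the 20 bins of the genome with the most rescue peaks, 17 lay in the windows. The highest rescue count of a bin elsewhere was 193.

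**Figure D2:**
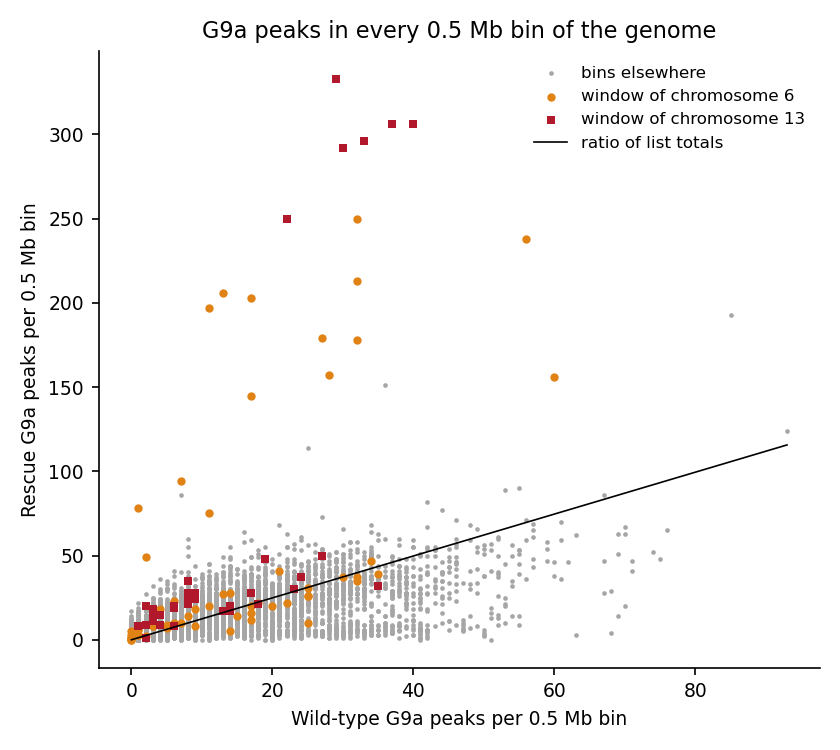
Rescue against wild-type G9a peaks in every 0.5 Mb bin of the genome, with bins of the chromosome 6 window (orange circles) and of the chromosome 13 window (red squares) set apart from all others (grey). The line is the ratio of the list totals; 6 bins of chromosome 13 lie at 250 to 333 rescue peaks with 22 to 40 wild-type peaks, while the highest bin elsewhere has 193 rescue peaks.

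A finer division, chosen after the counts had been seen, used 20 kb bins and kept runs of at least 0.5 Mb in which rescue peaks were dense and at least 2-fold in excess. These runs, called dense blocks here, numbered 4 on chromosome 6 and 1 on chromosome 13. They took up 9.06 Mb, which is 0.341% of the genome, and held 4145 rescue peaks against 527 wild-type peaks. The scaled ratio was 6.32 in the dense blocks together and 1.36 in the rest of both windows.

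On chromosome 6 dense block 1, chr6:119660001-121100000, held 396 rescue and 52 wild-type peaks (6.12-fold). Block 2, chr6:122500001-123300000, held 231 rescue and 71 wild-type peaks (2.62-fold), the lowest ratio of the 5. Block 3, chr6:123600001-125840000, held 921 rescue and 138 wild-type peaks (5.37-fold). Block 4, chr6:127660001-129380000, held 819 rescue and 75 wild-type peaks (8.78-fold), the highest ratio of the 5. The single block of chromosome 13, chr13:112540001-115400000, held 1778 rescue and 191 wild-type peaks (7.49-fold). It was also the longest and the densest, with 622 rescue peaks per Mb, against 275 to 476 per Mb in the blocks of chromosome 6 and 31.5 per Mb over the genome.

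Rescue peaks filled the chromosome 13 block evenly. Its full 100 kb steps held 50 to 71 rescue peaks each, with a median of 64, and neighbouring peak centres were a median of 1347 bp apart. The longest distance between neighbours was 16370 bp. The blocks of chromosome 6 were less even: their 100 kb steps held 12 to 47, 14 to 45, 16 to 61 and 34 to 63 rescue peaks in the order of position. In 0.5 Mb bins, the chromosome 6 blocks held 75 to 250 rescue peaks and 1 to 60 wild-type peaks per bin. On the same scale the chromosome 13 block held 250 to 333 rescue peaks and 22 to 40 wild-type peaks.

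The edges of the blocks were placed where the rescue counts changed. A step at each edge thus follows from the method, and the counts below only describe its size. The right edge of block 2 and the left edge of block 3 on chromosome 6 bordered 100 kb without a G9a peak of either list. Such edges do not show where the excess ended. At the left edge of the chromosome 13 block, the 100 kb inside held 50 rescue peaks and the 100 kb outside held 3. At its right edge the counts were 55 inside and 4 outside. On chromosome 6, the right edge of block 3 had 53 rescue peaks inside and 1 outside, and block 4 had 50 inside and 5 outside on its left and 54 inside and 3 outside on its right. Wild-type counts were small on both sides, with 0 to 19 peaks in the 100 kb inside and 0 to 11 in the 100 kb outside. They were higher inside than outside at 7 of the 10 edges, lower at 2 and equal at 1. The largest wild-type difference was at the left edge of block 2, with 19 inside against 11 outside. The rescue counts at this edge were 45 inside and 0 outside, so just outside it the rescue list held fewer peaks than the wild type. Block 1 of chromosome 6 had the smallest steps in rescue peaks, with 22 inside against 4 outside on its left and 21 against 4 on its right.

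**Figure D3:**
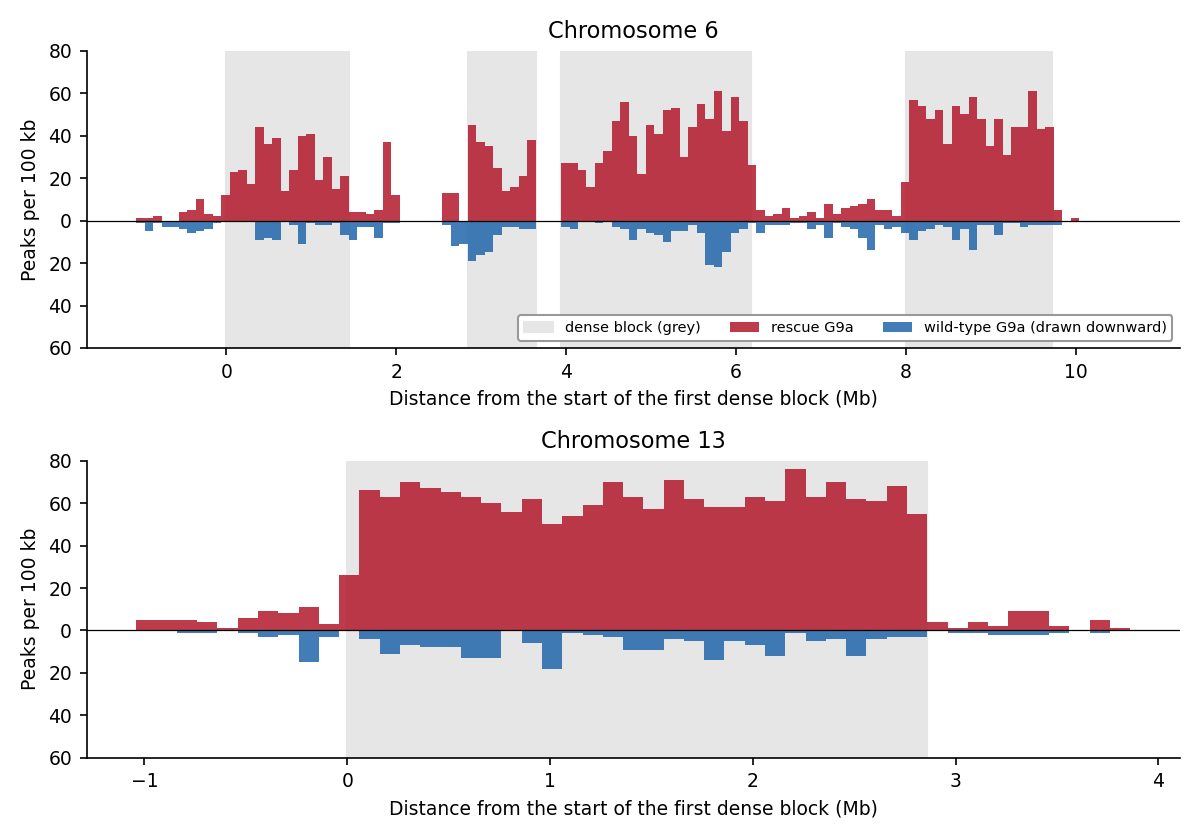
G9a peaks per 100 kb around the dense blocks (grey), with rescue counts drawn upward in red and wild-type counts drawn downward in blue, against the distance in Mb from the start of the first block of each chromosome. On chromosome 13 the 100 kb inside the right edge hold 55 rescue peaks and the 100 kb outside hold 4; the chromosome 6 blocks are parted by stretches with few peaks or none.

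The stretches between the blocks of chromosome 6 held far fewer rescue peaks than the blocks, or no peak at all. Between blocks 1 and 2, 1.4 Mb held 91 rescue and 50 wild-type G9a peaks. A run of 550 kb of it, chr6:121655458-122205723, held no peak centre of any of the 5 lists. Just before this run, the 100 kb from 121500001 held 37 rescue peaks, but was not among the dense blocks. Between blocks 2 and 3, the 300 kb of chr6:123300001-123600000 held no peak of any list. Between blocks 3 and 4, 1820 kb held 82 rescue and 70 wild-type G9a peaks, along with 16 knockout Ezh2 peaks and 14 and 21 peaks of wild-type Ezh2 libraries 0 and 1. This last stretch shows that a rescue count near the wild-type count sat between neighbouring blocks with 5.37-fold and 8.78-fold excess. Dense blocks of the same kind were rare outside the windows. The same procedure over the whole genome gave 7 blocks, of which 5 were those above and 2 lay elsewhere. These were chr3:95840001-96940000, with 316 rescue and 57 wild-type peaks (4.46-fold), and chr6:99800001-100780000, with 307 rescue and 108 wild-type peaks (2.29-fold).

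Rescue peaks in the blocks were stronger and wider than those in the rest of the windows and over the genome. Their median score was 37.39 on chromosome 6 and 45.76 on chromosome 13, against 26.33 in the rest of the windows and 26.86 over the genome. The 90th percentile of the score was 102 on chromosome 6 and 149 on chromosome 13, against 52.2 in the rest of the windows. The median width was 619 bp on chromosome 6 and 702 bp on chromosome 13, against 429 bp in the rest of the windows and 457 bp over the genome. Block 1 of chromosome 6 was the lowest of the 5, with a median score of 31.55 and a median width of 546.5 bp. The trait was not particular to the windows. The dense block of chromosome 3 had medians of 33.72 and 579.5 bp. That of chromosome 6 outside the window had 32.84 and 584 bp. The widest rescue peak of the genome, 7716 bp, lay in the chromosome 13 block. In all, rescue peaks covered 30.6% of the chromosome 6 blocks and 56.1% of the chromosome 13 block, but 1.86% of the rest of the windows.

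Wild-type peaks in the same blocks had no such shift in score. Their median score was 32.84 on chromosome 6 and 32.70 on chromosome 13, against 31.90 in the rest of the windows and 31.71 over the genome. They were more frequent, though. The blocks held 54.2 wild-type peaks per Mb on chromosome 6 and 66.8 on chromosome 13, against 21.7 in the rest of the windows and 25.4 over the genome. Wild-type peaks were thus about as strong in the blocks as elsewhere but lay closer together there.

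Across score bands, the share of rescue peaks that lay in the blocks climbed with the score. Of all rescue peaks scoring 20 to under 30, the blocks held 2.47%. They held 6.11% of those scoring 30 to under 50, 12.2% of those scoring 50 to under 100 and 18.6% (568 of 3059) of those scoring 100 or more. For wild-type peaks the shares were 0.731%, 0.87%, 0.842% and 0.693% in the same order of bands, with 50 of 7214 at 100 or more. Among the 100 highest-scoring rescue peaks of the genome, 15 lay in the chromosome 13 block and 4 in the blocks of chromosome 6. Among the 100 highest-scoring wild-type peaks, 1 lay in the blocks. The blocks were chosen for their rescue counts, so an excess in each band is a description and nothing further is read from it. The blocks' share of rescue peaks was highest in the highest band. Rescue peaks of that band were scarce elsewhere: outside the windows 3.12% of rescue and 10.7% of wild-type peaks scored 100 or more.

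**Figure D4:**
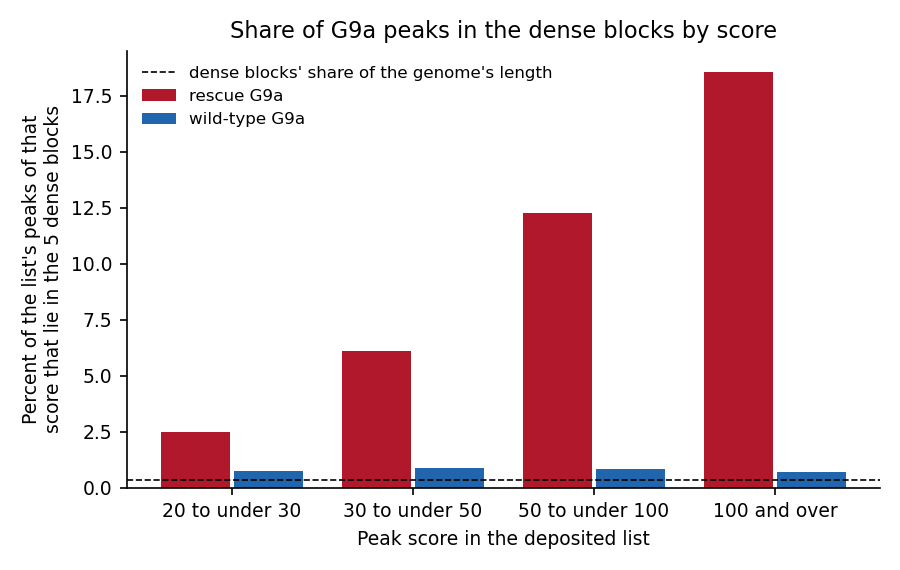
Percent of each G9a list's peaks, by score band, that lie in the 5 dense blocks, for the rescue (red, left) and the wild type (blue, right); the dashed line is the blocks' share of the genome's length, 0.341%. The rescue share is 2.47% in the lowest band and 18.6% in the highest, and the wild-type share lies between 0.693% and 0.87% in all 4 bands.

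Within the blocks the bins differed in strength. In chromosome 13, the bin chr13:114500001-115000000 had the most rescue peaks (333), the highest median score (50.47) and the largest share of its length under rescue peaks (64.4%). The bin chr13:113500001-114000000 had the lowest median score of the 6 bins there, 38.70, with 296 rescue peaks covering 48.2%. Among the bins of chromosome 6, chr6:125000001-125500000 had the largest covered share, with 238 rescue peaks over 45.9% of its length. The bin chr6:122500001-123000000 had the widest peaks, with a median of 998.5 bp, and 37.8% of its length covered. It also had 60 wild-type peaks, the most of any bin in the segment.

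Most rescue peaks in the blocks had no wild-type counterpart, while nearly all wild-type peaks there had a rescue counterpart. Of the rescue peaks, 302 of 2367 (12.8%) on chromosome 6 and 182 of 1778 (10.2%) on chromosome 13 overlapped a wild-type peak by at least 1 bp. Over the genome the share was 27.2%. In the dense blocks outside the windows it was 13.6% on chromosome 3 and 26.1% on chromosome 6. Seen from the wild type, 303 of 336 peaks (90.2%) on chromosome 6 and 182 of 191 (95.3%) on chromosome 13 overlapped a rescue peak, against 31.9% over the genome and 333 of 895 (37.2%) in the rest of the windows. Over the whole segments these shares were 73.3% and 89.9%. Both shares depend on the numbers of peaks in the contrast that chose the windows, so nothing further is read from them. In the 6 bins of the chromosome 13 block, between 90.9% and 100% of the wild-type peaks overlapped a rescue peak. The bins of the chromosome 6 blocks varied more, with 57.1% of 7 wild-type peaks in chr6:123500001-124000000 and 98.2% of 56 in chr6:125000001-125500000. The only wild-type peak of chr6:119500001-120000000 had no rescue partner.

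The rescue peaks without a wild-type partner lay at varied distances from wild-type peaks. Of the 3661 such peaks in the blocks, 11.2% lay within 1 kb of a wild-type peak, 37.97% within 5 kb and 22.3% more than 20 kb away, with a median distance of 7.40 kb. In the rest of the windows the median distance was 13.7 kb, and over the genome outside the windows it was 10.6 kb. The share within 1 kb was 11.6% in the rest of the windows and 13.2% outside the windows, near that of the blocks. The wild-type list is denser in the blocks, which by itself shortens these distances.

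Rescue peaks at wild-type sites were stronger than the others, in the blocks as elsewhere. In the blocks the median score was 92.59 for the 484 rescue peaks that overlapped a wild-type peak and 37.89 for the 3661 that did not. In the genome outside the windows the medians were 35.97 and 24.94. The widths followed the same order, with medians of 1226.5 bp and 611 bp in the blocks and 635 bp and 410 bp outside the windows. Wider peaks have more chance of touching another peak, and the part of width in this difference was not tested. By chromosome, the median score of the rescue peaks without a partner was 34.34 in the blocks of chromosome 6 and 43.25 in the block of chromosome 13.

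The 5 highest-scoring rescue peaks of the chromosome 6 segment lay in dense blocks and touched a wild-type peak. The highest rescue score in the rest of that window was 658.06. The first was chr6:122609378-122614251, in block 2, with a score of 1029.78 and rank 13 among all rescue peaks. The next were chr6:125537419-125545127, with a score of 822.12 and a width of 7709 bp, and chr6:127716940-127719088, with a score of 731.16. They were followed by chr6:128243863-128250419 (648.79) and chr6:125358432-125362776 (522.1). The best wild-type peak overlapping each of these 5 scored 257.85, 248.61, 26.78, 57 and 199.83 in the same order. The peak from 127716940 thus stood at rank 45 in the rescue list on a site that scored little above the lowest call, 20, in the wild type.

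In the chromosome 13 segment the highest rescue peak was chr13:114638707-114642997, with a score of 1214.24 and rank 9 among all rescue peaks. It overlapped a wild-type peak of score 887.32, at rank 82 of the wild-type list. The others were chr13:114494075-114498366 (919.08), chr13:115085358-115088896 (806.03), chr13:112725561-112731154 (731.41) and chr13:113141788-113145903 (689.58). Their best wild-type partners scored 76.01, 248.24, 104.31 and 102.95 in that order. As in the chromosome 6 segment, the 5 highest rescue peaks stood on sites that the wild-type list also held. The highest rescue score in the rest of the chromosome 13 window was 966.7, also at a wild-type site.

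Rescue peaks without any wild-type overlap also reached high scores. The highest in the chromosome 13 segment were chr13:114371450-114375057 (640.86), chr13:114670375-114675431 (604.83) and chr13:114518748-114521644 (560.42), at ranks 64, 71 and 87 among all rescue peaks. In the chromosome 6 segment they were chr6:123281478-123284112 (338.06), chr6:124448722-124453044 (335.71) and chr6:125447868-125449626 (312.09), at ranks 234, 238 and 284. Outside the windows no rescue peak without a wild-type partner scored above 288.11. The 6 named peaks were all above that value, and all lay in dense blocks. Between the dense blocks of chromosome 6 such a peak reached 291.64, so scores above that value were not confined to the blocks.

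Sites that were strong in both lists were also present. The best-ranked shared region of the chromosome 13 segment was its top rescue peak. It was followed by chr13:113250171-113253344, with best scores of 570.48 in the rescue and 352.38 in the wild type, and chr13:113485249-113486780, with 250.04 and 297.75. In the chromosome 6 segment the best-ranked were chr6:120138293-120142842 (375.04 in the rescue and 589.15 in the wild type), chr6:125450936-125457654 (315.76 and 630.24) and chr6:123644816-123648013 (239.57 and 712.15). These 3 shared regions of chromosome 6 ranked 199 to 485 in the rescue list and 157 to 274 in the wild-type list.

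Wild-type peaks missing from the rescue list were few and mostly weak inside the blocks. In the blocks 42 wild-type peaks had no rescue overlap, with a median score of 22.77 and a highest score of 93.11. The 3 highest in the chromosome 6 segment lay between blocks: chr6:122417497-122421886 (554.92), chr6:122421995-122423397 (256.43) and chr6:121476141-121476626 (141.23). The first of these lies less than 100 kb before the start of block 2. In the chromosome 13 segment the highest were chr13:117599985-117600715 (52.33), chr13:117285780-117286305 (44.6) and chr13:115397501-115398012 (40.08). The last of these lies at the very end of the dense block. Such peaks scored up to 199.22 in the rest of the chromosome 13 window.

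The Ezh2 lists were not used in choosing the windows, and they bear on whether peaks of another protein changed in knockout cells over the same stretches. The knockout list held fewer Ezh2 peaks there than either wild-type list, scaled for list length. The chromosome 6 blocks held 6 knockout Ezh2 peaks, against 7 and 46 in wild-type libraries 0 and 1. The chromosome 13 block held 4 knockout Ezh2 peaks, against 16 and 14 in the wild-type libraries. Scaled by list totals, the knockout stood at 0.75 of library 0 and 0.25 of library 1 in the chromosome 6 blocks, and at 0.22 and 0.54 in the chromosome 13 block. It lay below both wild-type libraries in both places, though against library 0 on chromosome 6 this was 6 peaks against 7. The wild-type libraries also differed between themselves, with library 1 over library 0 at 3.03 on chromosome 6 and 0.40 on chromosome 13. In the rest of the windows the knockout held 69 peaks against 64 and 156, at 0.94 of library 0 and 0.84 of library 1. The lists differ in their lowest score, which was 43.03 in the knockout, 43.02 in library 0 and 30 in library 1. In the chromosome 6 blocks the 46 library 1 peaks had a lower quartile of 32.4 and a median of 45.16. A part of them thus scored under the lowest knockout score. Of the 46, 17 lay in block 2, where the knockout list and library 0 held none. The blocks were not compared at a common lowest score.

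Over the whole segments the same order was seen. The chromosome 6 segment held 25 knockout Ezh2 peaks against 25 and 79 in the wild-type libraries, 0.71 of their scaled mean. The chromosome 13 segment held 5 knockout peaks against 24 and 31, 0.23 of their scaled mean. With scores of at least 50 in the Ezh2 lists these values were 0.80 on chromosome 6 and 0.113 on chromosome 13. With 1 knockout library there is no test of these differences.

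**Figure D5:**
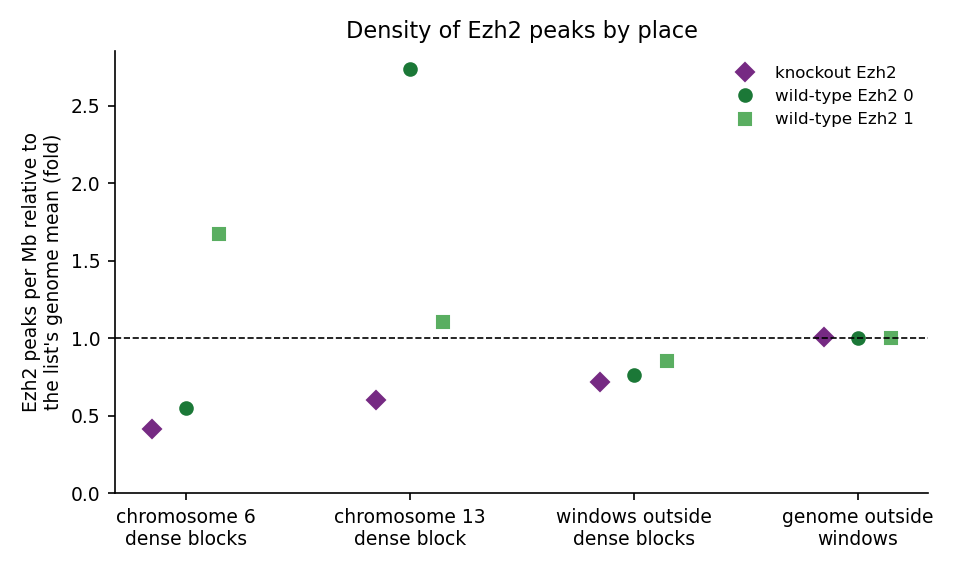
Ezh2 peaks per Mb in each place, divided by the same list's mean over the genome, for the knockout (purple diamonds) and wild-type libraries 0 (dark green circles) and 1 (light green squares). The knockout point is the lowest of the 3 in both sets of dense blocks, where the wild-type libraries stand apart from each other, and all 3 points lie near 1 in the genome outside the windows.

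To follow single sites, overlapping Ezh2 peaks from all 3 lists were joined into regions. Of the regions held by both wild-type libraries, 3 of 7 in the chromosome 13 block and 0 of 3 in the chromosome 6 blocks also held a knockout peak. Together this was 3 of 10, 30% with an exact binomial 95% interval of 6.67 to 65.2 that covers counting error only. This interval and those below take regions as independent. Some regions nearly touch, such as chr13:115245747-115249225 and chr13:115249232-115251297, so the intervals can be too narrow and nothing is read from them. In the rest of the windows it was 17 of 42 (40.5%; 25.6 to 56.7), and over the genome it was 62.6%. Outside the blocks the windows differed, with 14 of 25 (56%; 34.9 to 75.6) on chromosome 6 and 3 of 17 (17.6%; 3.8 to 43.4) on chromosome 13. In the chromosome 13 segment beyond the block, all 7 regions of both wild-type libraries, between 117083729 and 117815649, lacked a knockout peak. Their best scores in library 0 were between 44.5 and 140.76.

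Of these sites in the chromosome 13 block, the one with the highest score in library 1 was chr13:115245747-115249225, with best scores of 75.6 in the knockout, 392.54 in library 0 and 2130.59 in library 1. Knockout peaks covered 700 bp of it, against 2053 bp and 3479 bp in the wild-type libraries. Another region of the block, chr13:113776179-113781940, had no knockout peak, with best scores of 410.86 and 1936.14 in the wild-type libraries. It scored above chr13:115245747-115249225 in library 0 and below it in library 1. Its close neighbours chr13:113783285-113784939 and chr13:113788410-113790279 did hold knockout peaks, with best scores of 77.64 and 47.81. Ezh2 was thus still called in the knockout next to this region. In the chromosome 6 blocks, chr6:120441376-120444516, chr6:127716877-127719383 and chr6:128249463-128251717 had no knockout peak, with library 0 scores of 208.03, 115.27 and 52.47.

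The highest knockout Ezh2 peaks of the chromosome 6 segment lay between blocks 3 and 4. The peak chr6:127099345-127100977 scored 557.42, and the peaks chr6:126593937-126594846 and chr6:126592696-126593453 scored 298.41 and 126.2. Both sites were held by both wild-type libraries, with library 0 scores of 675.08 and 567.34. The highest knockout peaks of the chromosome 13 segment were chr13:113784004-113784318 (77.64), chr13:115247461-115247916 (75.6) and chr13:115247097-115247340 (47.9), all in the dense block and all at wild-type sites.

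Ezh2 regions called in the knockout alone numbered 6 of 67 (8.96%) in the blocks, against 1776 of 13994 (12.7%) over the genome. The 6 were all on chromosome 6. Of these, 4 lay in 1 stretch of block 3 between 125240163 and 125323068, with scores of 48.53, 54.06, 44.2 and 52.81. Each of the 4 overlapped a rescue G9a peak and none overlapped a wild-type G9a peak. They lay in the bin chr6:125000001-125500000, of which rescue G9a peaks covered 45.9%, so nothing is read from this overlap. The other two were chr6:127699201-127699404 (54.01), with no G9a peak of either list, and chr6:127832824-127833094 (44.39), with a G9a peak of both lists. All 6 scored between 44.2 and 54.06, and the lowest score of the knockout list was 43.03.

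Ezh2 regions in the blocks lay under rescue G9a peaks more often than elsewhere. Of the 67 Ezh2 regions in the blocks, 53 (79.1%) held a rescue G9a peak and 16 (23.9%) a wild-type G9a peak. In the rest of the windows the shares were 15.7% and 12.2% of 197 regions, and in the genome outside the windows they were 13.8% and 12.8%. All 10 regions of both wild-type libraries in the blocks held a rescue G9a peak, and 2 of them held a wild-type G9a peak. Rescue G9a peaks covered 38.6% of the blocks, so any feature there was often under one. The rescue G9a counts were part of what chose the windows, and no test was made of these shares.

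By 0.5 Mb bins, the Ezh2 values were mixed. The windows had 12 bins with at least 10 Ezh2 peaks over the 3 lists, and 9 of the 12 lay in the segments. The scaled knockout value, with 1 peak added to each count, was at most 0.5 of the wild-type mean in 5 of the 12. Over the genome 9.43% of such bins were that low. A bin could reach 10 peaks through the wild-type lists alone, which favours low knockout values, so nothing is read from these shares. In 1 of the 12 the value was at least 2-fold, against 7.36% over the genome. Of the 5 low bins, 3 were in the segments: chr6:122500001-123000000 (0 knockout peaks against 0 and 14 in wild-type libraries 0 and 1), chr13:113500001-114000000 (2 against 10 and 8) and chr13:117000001-117500000 (0 against 7 and 13). The low bins outside the segments were chr6:119000001-119500000 (2 against 8 and 8) and chr13:108500001-109000000 (1 against 4 and 5). The high bin, chr6:118000001-118500000, held 5 knockout peaks against 1 and 4 and lay outside the segment. No bin of the segments reached a 2-fold knockout excess of Ezh2.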

How the data were processed

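The authors deposited 1 peak list per library, for 5 libraries, with the position and score of each peak. Bowtie 0.12.7, MACS 1.4 and build mm9 are named in the submitters' processing notes. The score of each deposited peak comes from the authors' peak caller, and the lowest scores were 20 in both G9a lists; the threshold set by the authors is not stated. Per the labels' protocols, G9a samples were fixed with DSG, a protein crosslinker, before formaldehyde. Per the series' design text, the wild-type inputs were pooled as the control for Ezh2 and G9a; which control the knockout and rescue lists had is not stated. The input libraries were not analysed here.

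Peaks were counted in the bin or region of their midpoint, on mm9, with positions printed 1-based. Counts were scaled by list totals, and with minimum G9a scores the fold was scaled by the totals of the filtered lists. The segment of rescue excess was the run of 0.5 Mb bins with the highest binomial likelihood. Dense blocks came from a 2-state Poisson path over 20 kb bins with a rate of 6 rescue peaks inside, 0.631 outside and a probability of 0.999 of staying in a state. Overlap needed 1 bp. Named peaks were, per segment, the 5 highest rescue peaks, and the 3 highest of rescue peaks without wild-type overlap, of shared regions by mean rank, of wild-type peaks without rescue overlap and of knockout Ezh2 peaks. The members, windows and rules were chosen with earlier results of these data known. The alternatives were other bin widths and ways of placing the edges, minimum scores, equal list lengths, other scalings, merging of close peaks, other overlap rules and leaving out a wild-type Ezh2 library.

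No mm9 sequence or annotation was used here, so no gene was assigned to a peak and no sequence is shown. Computations used Python 3.11.15, numpy 2.4.6, pandas 2.3.3 and scipy 1.17.1, figures matplotlib 3.10.9, and mm9 chromosome lengths GenomeInfoDb 1.38.1. The placing of segments and blocks and the overlaps were tested on simulated peaks with known answers.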

Additional observations from a re-analysis of the deposited data

How the results depend on the processing

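The starts of the excess were stable: 119500001 or 119660001 on chromosome 6 and 112500001 or 112540001 on chromosome 13, except 119000001 and 111000001 with 1 Mb bins, and 111000001 on chromosome 13 by the longest run of bins past 2-fold. The ends were not. On chromosome 6 the end moved from 133000000 to 133750000 with 0.25 Mb bins, 126000000 by the longest run, 129500000 by rescue counts alone or with scores of at least 30 or 50, 132500000 with equal numbers of top-scoring peaks and 129380000 with dense blocks. On chromosome 13 it moved from 118000000 to 120284312 by the longest run, 115500000 by rescue counts alone or with equal numbers, 117000000 and 116000000 with scores of at least 30 and 50, and 115400000 with dense blocks. Few peaks lie beyond 129500000 in the chromosome 6 segment, but the longest run leaves out block 4.

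The rescue to wild-type fold stayed above 2 in each alternative run. On chromosomes 6 and 13 it was 6.96 and 13.1 with scores of at least 30, 10.1 and 23.3 with scores of at least 50, 5.09 and 8.35 with equal numbers, 3.72 and 6.02 scaled without chromosomes 1 and 8, 3.55 and 5.75 scaled by the median bin ratio, and 2.50 and 2.11 with peaks within 1 kb merged; dense blocks gave 5.66 on chromosome 6. With minimum scores the fold was scaled by the totals of the filtered lists. Merging joins the close-set rescue peaks. The number of bins of the genome past 2-fold was 299 and 92 with scores of at least 30 and 50, 385 with the median bin ratio, 257 with 5 peaks added and 1101 with no minimum number of peaks, against 659.

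With a gap of up to 1 kb, 23.2% of rescue peaks on chromosome 6 and 19.5% on chromosome 13 had a wild-type partner, and 80.9% of wild-type peaks on chromosome 6 had a rescue partner. With 50% of the shorter peak required, wild-type peaks had a partner in 68.6% and 82.2% of cases and rescue peaks of chromosome 13 in 8.23%. With scores of at least 50, the shares on chromosome 13 were 6.62% of rescue and 96.5% of wild-type peaks. Dense blocks gave 90.2% and 95.3% of wild-type peaks. Median rescue scores were 49.63 and 57.48 with scores of at least 30 and 77.6 and 84.0 with scores of at least 50, by construction, and 37.39 in the dense blocks of chromosome 6, against 36.28 and 44.81. Median widths were 781 and 817 bp, then 1076 and 1114 bp, at these scores, 1022 and 2084.5 bp with peaks merged and 619 bp in the dense blocks of chromosome 6, against 600 and 681.5 bp. The knockout to wild-type Ezh2 fold was 0.601 to 0.875 on chromosome 6 and 0.182 to 0.306 on chromosome 13 when a wild-type library was left out, 0.80 and 0.113 with Ezh2 scores of at least 50, and 0.372 in the dense blocks of chromosome 6. Dense blocks and their rates were chosen after seeing the data; with a rate of 8 block 3 of chromosome 6 was 1840 kb long, against 2240 kb. The other causes of these shifts were not tested. No paired analysis was possible because each G9a group had 1 library and the knockout Ezh2 library shared its number with 1 wild-type library only.

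With 1 library per condition, no difference here was tested against the spread between cultures. Without reads, differences in depth or in background could not be assessed.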
